A study of Rattus norvegicus with 12 samples.

Results

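A set of 9 genes of fatty acid uptake and triglyceride assembly was followed in rats after a burn: Cd36, Lpl and Fabp5 on the uptake side, and Gpam, Agpat2, Lpin1, Dgat1, Dgat2 and Pnpla3 on the assembly and storage side. Their probe sets were chosen by symbol, as those that the platform annotation gives to exactly 1 gene, that gene being on the list. The list itself was drawn up with earlier results of these data known. All 9 were found, with 1 probe set each, among 10411 genes. Rats with a thermal injury were set against sham-treated rats at 2, 4 and 7 days, using Affymetrix RAE230A arrays, and every day had 3 samples. A sample joins both conditions, with thermal injury labelled as channel 2 and sham as channel 1, and gave a single log2 ratio per probe set. Tissue, strain, sex, age, burn size and the number of animals are not in the labels, nor is it said that samples are different animals. The p-values therefore measure only the spread between samples, which may be technical. No label states which condition is on top of the ratio. From the channels, injury over sham is likely, and positive ratios are read here as higher after injury. Ratios carry no level of a gene, and a change in the makeup of the cells cannot be told apart from a change in RNA per cell.

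Triglyceride is built in cells by adding fatty acids to a glycerol backbone. Lipoprotein lipase (Lpl) frees fatty acids from circulating lipoproteins, Cd36 takes long-chain fatty acids in at the cell surface, and fatty acid binding proteins such as Fabp5 carry them inside the cell. Gpam, a mitochondrial acyltransferase, puts the first fatty acid on glycerol 3-phosphate, Agpat2 puts on the next to make phosphatidic acid, lipin 1 (Lpin1) removes the phosphate, and the acyltransferases Dgat1 and Dgat2 complete the triglyceride. Pnpla3 is a protein of the lipid droplet surface with lipase and acyltransferase activity described in other systems. In liver this route feeds both lipid droplets and very low density lipoprotein, and fat can accumulate in the liver after severe burns.

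Cd36 and Gpam had the widest spread of ratios over the 9 samples, so the sequences before their start sites are shown. They come from RefSeq, build GRCr8, and end at the base before the annotated start. A single start is given per gene, and other starts were not analysed here. The Cd36 stretch lies at chr4:18246332-18246581 on the plus strand and the Gpam stretch at chr1:264175912-264176161 on the minus strand, both written 5′ to 3′.
Cd36: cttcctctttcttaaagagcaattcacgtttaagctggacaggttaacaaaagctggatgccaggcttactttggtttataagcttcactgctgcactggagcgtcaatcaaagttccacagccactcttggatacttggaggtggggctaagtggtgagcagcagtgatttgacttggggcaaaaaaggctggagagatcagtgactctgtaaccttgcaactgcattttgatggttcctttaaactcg
Gpam: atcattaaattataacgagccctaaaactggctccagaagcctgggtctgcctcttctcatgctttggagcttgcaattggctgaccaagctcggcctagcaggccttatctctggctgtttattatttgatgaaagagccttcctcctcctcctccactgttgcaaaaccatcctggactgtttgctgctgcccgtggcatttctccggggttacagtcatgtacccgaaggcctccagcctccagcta

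These 250 bases were 45.6% G and C with 3 CpG dinucleotides before Cd36, and 51.2% with 5 CpG before Gpam, against medians of 51.2% and 5 over 33469 promoters. Of the 9 genes, 5 had an entry, and the stretch before Agpat2 differed most from the median, with 78.4% G and C and 29 CpG. Each stretch was searched on both strands for 4 motifs. They were TCACNCCAC (SREBP), CACGTG (E-box), TTCNNNGAA (STAT) and the direct repeat bound by PPAR and RXR, AGGTCA repeated after 1 base. None of the 4 motifs was found in any of the 5 stretches, so no base is in capitals. Among all promoters the SREBP motif was in 0.974%, the E-box in 5.59%, the STAT motif in 7.67% and the direct repeat in 0.0508%.

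The 3 arrays of day 1 were left out, because their values did not line up with the other days by probe set: the rank correlation of the array signals recovered from the ratios lay between -0.00281 and 0.0211 for the 27 pairs with another day, against 0.672 to 0.723 for the 36 pairs among days 2, 4 and 7 (across probe sets, which are not independent). Among marker lists of other cell types, that of the exocrine pancreas (8 of 8 genes measured) had medians of 3.67 and 1.78 in samples 2 and 3 of day 4, and between -0.24 and 0.39 in the other 7 samples. The hepatocyte list (9 of 10 measured) stayed between -0.20 and 0.26 in all 9. Those of skeletal muscle (6 of 6 measured), keratinocytes (5 of 5) and red cells (4 of 5) lay between -0.89 and 0.98. Over all genes, limma called 15 at day 2 (12 higher and 3 lower, or the reverse if the ratio runs the other way), 0 at day 4, 5 at day 7 and 34 for the mean of the 3 days, at an adjusted p under 0.05.

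Of the uptake genes, Cd36 was the member that rose. Its log2 ratios on day 2 were 2.37, 1.90 and 1.66 in samples 1, 2 and 3, a mean of 1.98 ± 0.36 (SD, n = 3) or 3.94-fold. All 3 samples of that day lay above 0 and above every sample of day 4. In the limma fit with Benjamini-Hochberg adjustment over all genes the rise on day 2 passed (95% interval 1.31 to 2.64, adjusted p = 0.0306), and Cd36 ranked 14th from the top of the 10411 genes by its mean on that day (14th from the bottom if the ratio runs the other way). The members were chosen with earlier results of these data known, so their share of calls is no independent support. Cd36 was 1 of 9 members called on day 2, where 0.144% of all genes were called. Its call was lost with 1 variance prior for all genes (adjusted p = 0.224), with array weights (0.0700), in a fit of day 2 alone (0.0629), without samples 1 (0.251), 2 (0.268) or 3 (0.0684) of day 2, without sample 3 of day 4 (0.0562) and without samples 2 and 3 of day 4 together (0.0503). The ratio itself lay between 1.78 and 2.135 when 1 sample of day 2 was left out. Samples of the other days do not enter it. A second probe set, annotated to both Cd36 and Cd36l1 and not used here, had a lower day 2 mean of 0.92. It did not pass on that day (limma over all probe sets, adjusted p = 0.310).

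On the later days Cd36 was less even. On day 4 it was at -0.13, 1.08 and 0.37, a mean of 0.44 ± 0.61, and on day 7 at 1.89, 0.12 and 0.45, a mean of 0.82 ± 0.94 (SD, n = 3 each). The 2 days overlap, and on day 7 sample 1 alone was as high as the samples of day 2. Neither mean passed (adjusted p = 0.690 on day 4 and 0.299 on day 7). Sample 2 of day 4, the highest of its day, was also the sample with the highest pancreas markers, whose part in the value was not tested. Over the 3 days together Cd36 was 2.11-fold higher (log2 1.08, SE 0.18, limma adjusted p = 0.0283) and above 0 in 8 of 9 samples. In this list, chosen with earlier results known, it was again the 1 member called, where 0.327% of all genes were called. That call was lost with 1 variance prior (0.154), without sample 1 (0.0941) or 2 (0.0693) of day 2, without sample 2 (0.111) or 3 (0.0513) of day 4 and without sample 3 of day 7 (0.0657). Without both day 4 samples with high pancreas markers the ratio was 0.89 (adjusted p = 0.268).

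Cd36 is made by several cell types, among them fat cells, macrophages and endothelial cells. On day 2 the medians of these marker lists were -0.71, 0.30 and -0.40 for adipocytes (5 of 8 genes measured), 0.03, 0.27 and -0.21 for macrophages (6 of 9) and -0.47, 0.33 and -0.23 for endothelial cells (4 of 7), in samples 1, 2 and 3. The highest of these medians was 0.33. No gene of these lists was called on any day, where 0.144%, 0% and 0.0480% of all genes were called on days 2, 4 and 7. With such shares, no call is usual for lists this short. Their part in the Cd36 value was not tested. The difference of Cd36 between day 4 and day 2 was -1.54 (SE 0.43, 95% interval -2.48 to -0.60, unadjusted p = 0.00407 from limma), and that between day 7 and day 2 was -1.16 (SE 0.43, -2.10 to -0.22). Neither passed over all genes (adjusted p = 0.336 and 0.528 in limma).

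Lpl did not pass on any day. It was at 0.70, 0.19 and 0.26 on day 2 (mean 0.39 ± 0.28, SD), at 0.54, -0.17 and -0.03 on day 4 and at -0.01, -0.80 and 0.43 on day 7. All 3 samples of day 2 lay above 0, and the days overlapped. The 95% intervals, -0.13 to 0.90 on day 2, -0.40 to 0.63 on day 4 and -0.64 to 0.38 on day 7, all held 0.

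Fabp5 split within each day. Its ratios were 0.87, 0.83 and -0.96 on day 2, with sample 3 apart from the others, 0.00, 1.05 and -0.20 on day 4, with sample 2 apart, and 0.62, -0.31 and -0.998 on day 7. No day had all samples on 1 side of 0, and the SD within a day reached 1.05. The day means of 0.25, 0.28 and -0.23 therefore differed by less than the spread between samples (limma F test over days, adjusted p = 0.852).

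**Figure D1:**
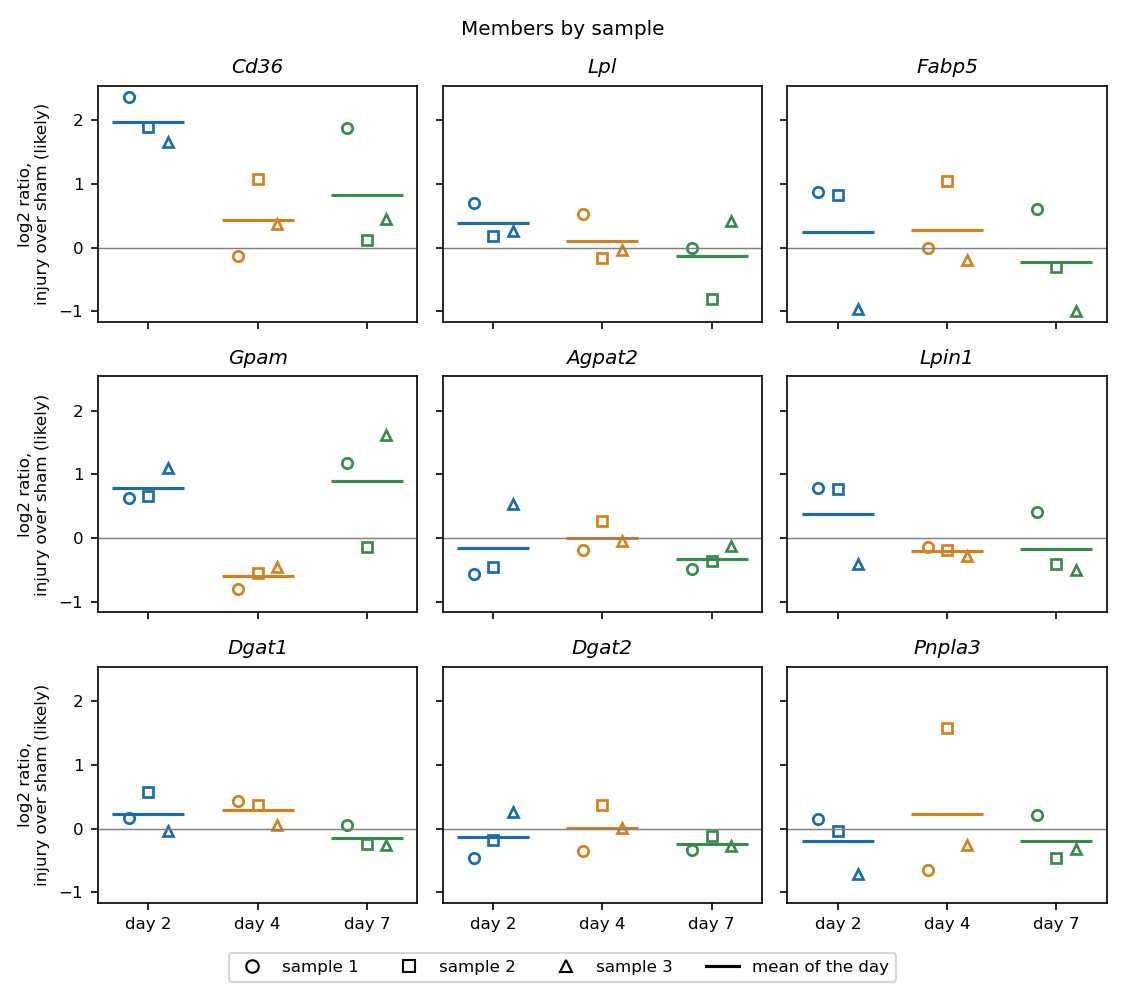
Log2 ratio of injury over sham (likely direction; y axis) for each of the 9 genes on days 2, 4 and 7 (x axis), with 1 symbol per sample and a bar at the mean of the day. Cd36 lies between 1.66 and 2.37 on day 2, and Gpam between 0.63 and 1.10 on day 2 and between -0.80 and -0.46 on day 4.

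Of the assembly genes, Gpam had the largest differences between days. It was at 0.63, 0.66 and 1.10 on day 2 (mean 0.80 ± 0.26, SD, 1.74-fold), at -0.80, -0.54 and -0.46 on day 4 (mean -0.60 ± 0.18) and at 1.19, -0.14 and 1.62 on day 7 (mean 0.89 ± 0.92). Day 4 lay below day 2 and below day 7 in every sample, and the sign was opposite in all samples of days 2 and 4. Of all genes, 2.39% were above 0 in every sample of day 2 and below 0 in every sample of day 4.

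In limma's fit the Gpam difference between day 4 and day 2 was -1.39 (SE 0.37, 95% interval -2.21 to -0.58) and that between day 7 and day 4 was 1.49 (SE 0.37, 0.67 to 2.31). With unadjusted p of 0.00308 and 0.00196 they ranked 94th and 177th among all genes and did not pass (adjusted p = 0.336 and 0.115), nor did the F test over days (adjusted p = 0.202). For the difference of days 4 and 2 limma called 0 genes (0%), with 902 at an unadjusted p under 0.05, and for that of days 7 and 4 it called 3 (0.0288%). The F test called 1 gene (0.00961%). The Gpam values of day 7 moved with single samples. Without sample 2 of day 7 the day 7 ratio was 1.41 (adjusted p = 0.0308), day 7 minus day 4 was 2.01 (adjusted p = 0.0254) and the F test passed too (adjusted p = 0.0370), while day 4 minus day 2 did not (adjusted p = 0.131). Without sample 3 of day 7 the day 7 ratio was 0.52 (limma adjusted p = 0.722) and day 7 minus day 4 was 1.12 (adjusted p = 0.356). Samples 2 and 3 of day 4 had high pancreas markers, whose part in the Gpam values was not tested. Leaving both out keeps 1 sample on day 4. Day 4 minus day 2 was then -1.595 and day 7 minus day 4 was 1.69.

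The next enzyme in the route did not follow Gpam. Agpat2 was at -0.56, -0.45 and 0.53 on day 2, at -0.18, 0.26 and -0.05 on day 4 and at -0.48, -0.36 and -0.12 on day 7. Its samples lay on both sides of 0 on days 2 and 4 and all below 0 on day 7, where the mean was -0.32 ± 0.18 (SD, n = 3; limma adjusted p = 0.530).

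Lpin1 was at 0.78, 0.77 and -0.41 on day 2, at -0.13, -0.18 and -0.27 on day 4 and at 0.41, -0.41 and -0.50 on day 7. Besides its enzyme activity, lipin 1 acts in the nucleus as a partner of transcription regulators in mouse liver. Day 4 was the evenest day, with a mean of -0.20 ± 0.07 (SD), and on days 2 and 7 a single sample had the opposite sign to the other two. The mean of the 3 days was 0.01 (SE 0.13, 95% interval -0.28 to 0.29).

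Dgat1 and Dgat2 catalyse the same last step and are not related in sequence. Dgat1 was at 0.17, 0.58 and -0.05 on day 2, at 0.43, 0.38 and 0.06 on day 4 and at 0.05, -0.24 and -0.26 on day 7. Dgat2 was at -0.47, -0.19 and 0.26 on day 2, at -0.36, 0.37 and 0.00 on day 4 and at -0.34, -0.12 and -0.28 on day 7. Dgat1 lay above 0 in every sample of day 4 and Dgat2 below 0 in every sample of day 7.

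Both had the smallest spread of the 9 genes, with an SD over the 9 samples of 0.29 each. For Dgat1, day 7 lay below day 4 in every sample, by -0.44 (SE 0.19, limma adjusted p = 0.356). The 95% intervals of the mean of the 3 days, -0.05 to 0.30 for Dgat1 and -0.32 to 0.07 for Dgat2, both held 0 and were the narrowest of the 9 genes. The signal of the Dgat2 probe set was not recovered in most arrays, so its brightness is the cap set for such values. The same held for Fabp7, Dbi and Lipc among the pathway genes named further on.

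Pnpla3 was at 0.14, -0.03 and -0.71 on day 2, at -0.65, 1.59 and -0.25 on day 4 and at 0.21, -0.46 and -0.32 on day 7. The high value was in sample 2 of day 4, the sample with the highest pancreas markers, and its part in the Pnpla3 value was not tested. Without that sample the day 4 mean was -0.45, against 0.23 with it. Its probe set was the dimmest of the 9, at the 33.9th percentile of the recovered signal, and no day passed (limma adjusted p = 0.934, 0.918 and 0.880 on days 2, 4 and 7).

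**Figure D2:**
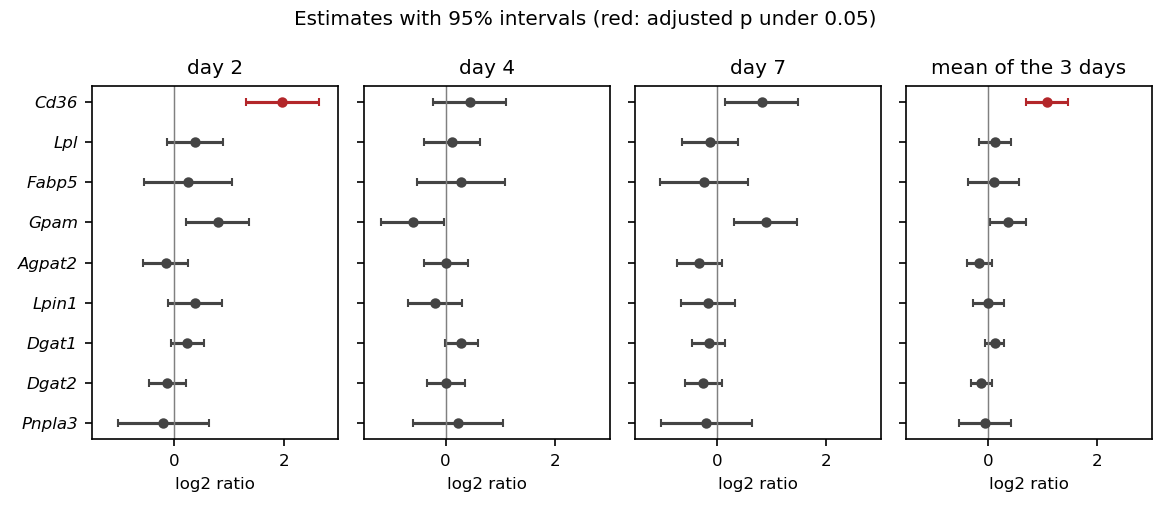
Estimated log2 ratio (x axis) of each gene (y axis) on days 2, 4 and 7 and for their mean, with 95% intervals from the limma fit. Only Cd36 on day 2 and for the mean is drawn in red for an adjusted p under 0.05; the Gpam interval lies above 0 on days 2 and 7 and below 0 on day 4.

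Seen by day, the genes did not move as a block. On day 2, 6 of 9 means were above 0 with a median of 0.25, against 50.8% of all genes and a median of 0.00. On day 4, 7 of 9 were above 0 (median 0.11), and on day 7, 2 of 9 (median -0.17), against 51.0% and 48.4% of all genes. The day 4 count included Agpat2 at 0.01 and Dgat2 at 0.0046, and it was 3 of 9 without sample 2 of that day, the sample with the highest pancreas markers, when Fabp5 was at -0.10, Agpat2 at -0.12, Dgat2 at -0.18 and Pnpla3 at -0.45. Cd36 and Gpam were the 2 genes above 0 on day 7.

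Counts of genes whose samples all lay on 1 side of 0 were read against the same count over all genes. On day 2 all 3 samples were above 0 for Cd36, Lpl and Gpam, 3 of 9 against 13.8% of all genes, and below 0 for none, against 13.1%. On day 4 they were above 0 for Dgat1 (18.3% of all genes) and below 0 for Gpam and Lpin1 (16.2%). On day 7 they were above 0 for Cd36 (15.6%) and below 0 for Agpat2 and Dgat2 (18.0%). With 9 genes, shares of 1 or 2 are near these backgrounds. Days 4 and 2 did not overlap for Cd36 and Gpam, against 14.4% of all genes, and days 7 and 4 for Gpam and Dgat1, against 19.7%. Days 7 and 2 overlapped for all 9, where 12.6% of all genes had no overlap.

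Apart from Cd36 on day 2 and for the mean, no member passed in any comparison. On day 4 limma called 0 of 10411 genes (0%), with 1112 at an unadjusted p under 0.05. It called 36 with array weights, 3 without sample 1 and 6 without sample 3 of that day. On day 7 it called 0.0480% of genes, none of them a member. For day 7 minus day 2 it called 0 genes (0%), with 867 at an unadjusted p under 0.05.

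Within single samples the order of the genes also shifted. The median of the 9 genes was 0.63, 0.58 and 0.26 in the samples of day 2, -0.13, 0.37 and -0.05 in those of day 4 and 0.21, -0.31 and -0.26 in those of day 7. In sample 2 of day 7, Cd36 at 0.12 was the 1 gene above 0. In sample 1 of that day 6 of 9 were above 0, led by Cd36 at 1.89 and Gpam at 1.19.

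The likeness of each pair of members was measured as the root mean square difference of their ratios over the 9 samples, which share their arrays. This difference is small for genes that stay near 0, so its ranking partly follows the spread of each gene. The SD over the 9 samples was 0.29 for Dgat1 and Dgat2 and 0.91 for Cd36. Of 36 pairs the closest was Agpat2 with Dgat2, at 0.18. They had the same sign in 8 of 9 samples and were never more than 0.27 apart. In most arrays the Dgat2 signal was not recovered. Lpin1 with Dgat1 (0.41) and Lpl with Dgat1 (0.43) followed. Cd36 lay between 1.08 from Gpam and 1.58 from Agpat2. Fabp5 had the same sign as Lpin1 in 8 of 9 samples and as Pnpla3 in 8 of 9.

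By the same measure, the genes outside the list nearest to Cd36 were Elmo2 (0.65), Il5 (0.69), Col4a4 (0.71), Pcolce (0.73) and A2m (0.73), where the median over all genes was 1.45. They were picked for this nearness, so a course like that of Cd36 is built in. Elmo2 had means of 1.395, 0.74 and 0.78 on days 2, 4 and 7. The means were 1.03, 0.18 and 0.66 for Il5 and 1.43, 0.12 and 0.71 for Col4a4. In sample 3 of day 2, Il5 was at 0.12 and Col4a4 at 0.05. A2m, a protease inhibitor of the rat acute-phase response, was at 1.19, 2.90 and 1.52 on day 2, at 0.15, 0.74 and 0.66 on day 4 and at 1.67, 1.27 and 1.34 on day 7. Like Cd36 it had its lowest day mean on day 4, at 0.52, but unlike Cd36 it was above 1 in every sample of day 7. Pcolce, which aids the processing of procollagen, was at 0.84, 1.68 and 1.03 on day 2 and at 0.05, 0.42 and 0.17 on day 4.

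Around these 9 genes, 58 of 72 other genes of fatty acid uptake, activation, assembly, storage, hydrolysis and their regulation were measured under 1 symbol. None passed on any day, for the mean or for a difference of days. Of the 58, 31 were above 0 on day 2 (median 0.01), 28 on day 4 (median -0.01) and 30 on day 7 (median 0.02), and 13, 4 and 11 had an unadjusted p under 0.05 in limma, against 8.50%, 10.7% and 12.4% of all genes.

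In uptake, 7 of 10 other genes were above 0 on day 2, with a median of 0.21, where 50.8% of all genes were above 0. Fabp3, the fatty acid binding protein of heart and muscle, had the smallest p over days. It was at -1.71, -2.26 and -0.79 on day 2, at 0.47, 0.26 and 2.24 on day 4 and at 0.41, 0.91 and -0.13 on day 7 (F test, limma adjusted p = 0.199). Fabp7, the fatty acid binding protein of brain, had the smallest p for the mean of days, at 0.20 (SE 0.13, adjusted p = 0.652).

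In activation to acyl-CoA, Dbi, which binds acyl-CoA, was above 0 in all samples of days 2 and 4 (means 0.32 and 0.27) and at 0.03, -0.46 and -0.61 on day 7 (F test, limma adjusted p = 0.273). Of all genes, 13.8% lay above 0 in all samples of day 2 and 18.3% in those of day 4. Dbi was named for the smallest p over days in its role, which favours a difference between days. Acsl3, an acyl-CoA synthetase found on lipid droplets, was at 1.04, 0.18 and 0.63 on day 2, at -0.11, 0.07 and -0.24 on day 4 and at 0.78, 0.05 and -0.11 on day 7. Its mean of days was 0.25 (SE 0.11, adjusted p = 0.466).

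In assembly, 3 of 11 other genes were above 0 on day 4, against 51.0% of all genes. Gpd1, which makes the glycerol 3-phosphate that Gpam uses, was at 0.39, 0.41 and -0.28 on day 2, at -0.45, -0.42 and -0.05 on day 4 and at 0.48, 0.43 and 0.65 on day 7 (F test, limma adjusted p = 0.233). Days 7 and 4 did not overlap, with day 7 higher, where 19.7% of all genes had no overlap in either direction. Gpd1 was named for the smallest p over days in its role, which favours such a separation. Gpat4, the acyltransferase of the endoplasmic reticulum that carries out the same step as Gpam, was below 0 in 8 of 9 samples. Its mean of days was -0.33 (SE 0.10, limma adjusted p = 0.276). It was named for the smallest p of that mean in its role, which favours samples of 1 sign.

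Among lipid droplet proteins, 7 of 8 were below 0 on day 2 (median -0.30) and 5 of 8 above 0 on day 4. Of all genes, 50.8% and 51.0% were above 0 on these days. The roles were not tested as sets. Fitm2, which helps droplets form, was at -0.10, -0.54 and -0.22 on day 2, at 0.53, 0.32 and -0.05 on day 4 and at -0.18, -1.05 and -0.73 on day 7 (F test, limma adjusted p = 0.267). Its mean of days was -0.23 (SE 0.10, adjusted p = 0.476).

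Among hydrolases, Lipa, the lysosomal acid lipase, had means of -0.07, 0.18 and -0.48 on days 2, 4 and 7, with every sample above 0 on day 4 and below 0 on day 7 (F test, limma adjusted p = 0.356). The same signs on these 2 days were found in 4.47% of all genes. Lipa was named for the smallest p over days in its role, which favours such a separation. Mgll, which splits monoglyceride, had a mean of days of -0.21 (SE 0.14, adjusted p = 0.664).

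Among circulating lipases and their regulators, Lipc, the hepatic lipase, was at -0.48, -0.24 and -0.19 on day 2, at -0.01, -0.07 and 0.08 on day 4 and at -0.42, -0.18 and -0.42 on day 7. It was below 0 in 8 of 9 samples, with a mean of days of -0.21 (SE 0.06, limma adjusted p = 0.218). Its F test did not pass (adjusted p = 0.470). It had the smallest p of the mean in its role and was named for it, which favours samples of 1 sign. Lipc had means of -0.30 on day 2 and -0.34 on day 7, where Lpl had 0.39 and -0.13.

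Of the receptors for lipoproteins, Lrp1 was at 0.40, 0.48 and 0.85 on day 2, at -0.27, -0.21 and 0.23 on day 4 and at 0.03, 0.57 and 0.66 on day 7. Its mean of days was 0.30 (SE 0.09, limma adjusted p = 0.220) and its F test did not pass (adjusted p = 0.337). Among the transcription regulators, Ppargc1a, the coactivator of PPAR factors, was at 3.56, 4.54 and 1.75 on day 2, at -2.85, 1.32 and -0.73 on day 4 and at 2.30, 0.54 and 2.49 on day 7. Its mean of days was 1.44 (SE 0.47, adjusted p = 0.310), and its signal was among the dimmest of all genes, at the 0.120th percentile, and its SD within a day reached 2.08.

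**Figure D3:**
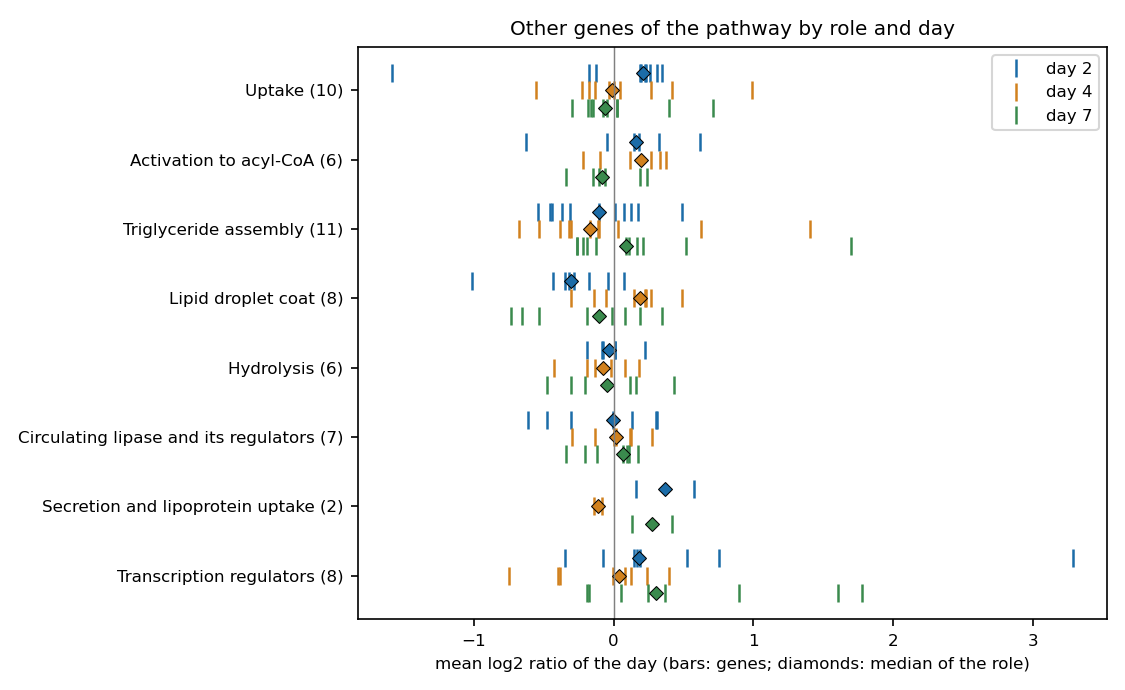
Mean log2 ratio of each day (x axis) for the 58 other genes of the pathway, by role (y axis, number of genes in brackets), with a bar per gene and a diamond at the median of the role. The medians of the roles lie between -0.30 and 0.37, and the bars beyond 3 and below -1.5 on day 2 are Ppargc1a and Fabp3.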

How the data were processed

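The deposited file holds, per the file headers, 1 value per probe set and sample for 12 samples on Affymetrix RAE230A arrays. The authors deposited log2 values, read here as ratios of 2 signals. The reason is that most equal the log2 quotient of a pair of whole numbers (found by continued fractions, tolerance 1e-09, cap 20000). A cap this high can also match other values. With the smaller number at most 3000, 71.7% to 74.4% of the values of an array were matched. After a small random shift of the values it was 0.521% to 0.798%. For scaling and software, the sources used here give nothing. Direction is unstated; the array medians before centring lay between -0.13 and 0.16. The median over arrays of the smaller recovered number served as brightness, with unrecovered values set to the cap.

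Of 15923 probe sets, 57 controls were left out. The platform annotation gave 12783 probe sets 1 symbol, 312 several and 2771 none. Probe sets of 1 gene were averaged (10411 genes) on the 9 arrays of days 2, 4 and 7, each centred on its median. The main fit was limma 3.58.1 in R 4.3.3 (lmFit with a mean per day, 6 residual degrees of freedom, eBayes with the variance prior following brightness), with Benjamini-Hochberg adjustment over all genes and a threshold of 0.05. Day means were tested against 0, against each other and by an F test. The fit was tested on simulated data. The number of arrays limits the precision.

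The members, lists and tests were chosen with earlier results of these data known. Named are all members, the pathway gene of each role with the smallest p of the F test and of the mean, and the 5 genes nearest to Cd36. Alternatives were the variance prior, centring, quantile normalization, array weights, single-day fits, a brightness filter, probe sets in place of genes, a replicate block and samples left out.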

Additional observations from a re-analysis of the deposited data

Results flagged for a closer look

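Differences between days in which every sample of 1 day lay above 0 and every sample of the other below 0 were found for Gpam, Fabp3, Gpd1 and Lipa. Each was also tested in limma, and none passed over all genes. Of all genes, 2.39% were above 0 on day 2 and below 0 on day 4 as Gpam was, 2.07% the other way round as Fabp3 was, 3.15% above 0 on day 7 and below 0 on day 4 as Gpd1 was, and 4.47% the other way round as Lipa was. Fabp3, Gpd1 and Lipa had been named for the smallest p over days in their role. Gpam was 1.39 lower on day 4 than on day 2 (day 4 minus day 2, -1.39, unadjusted p = 0.00308, adjusted p = 0.336), with samples from -0.80 to -0.46 on day 4 and from 0.63 to 1.10 on day 2. For Fabp3, day 4 minus day 2 was 2.58 (unadjusted p = 0.00118, adjusted p = 0.270). For Gpd1, day 7 minus day 4 was 0.83 (unadjusted p = 0.00164, adjusted p = 0.109), and for Lipa it was -0.66 (unadjusted p = 0.0106, adjusted p = 0.206). No outlier test was run in groups of 3 samples.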

How the results depend on the processing

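Of the 2 called results, Cd36 on day 2 lost its call under 9 settings and the Cd36 mean of days under 8. No other value of these genes was called, so that staying uncalled says nothing of stability. Called genes numbered 15 on day 2, 0 on day 4, 5 on day 7, 34 for the mean of days, 0 for day 4 minus day 2, 3 for day 7 minus day 4 and 1 in the F test. With 1 variance prior they were 0 on day 2, 0 on day 7, 4 for the mean, 0 for day 7 minus day 4 and 0 in the F test. Fits of single days called 0 on days 2 and 7. Without centring there were 8 on day 7, 10 for day 7 minus day 4 and 0 in the F test. Quantile normalization gave 2 for day 4 minus day 2 and 2 in the F test. Array weights gave 36 on day 4, 2 for day 4 minus day 2, 47 for day 7 minus day 4 and 2 in the F test. The brightest probe sets gave 1 on day 4, 26 for day 7 minus day 4 and 3 in the F test. Probe sets in place of genes gave 1 on day 4, 10 on day 7 and 0 in the F test. Without samples 2 and 3 of day 4 together, a setting chosen after seeing the data, there were 9 on day 2, 2 on day 4, 1 on day 7, 4 for the mean and 0 in the F test. The replicate block called 4 on day 2, 2 on day 7 and 0 in the F test, and Cd36 lost its calls under it (adjusted p = 0.0830 on day 2 and 0.0627 for the mean, in limma). Same-numbered samples correlated at -0.041 to 0.0682, so the numbers were not taken as pairs. Leaving out 1 sample at a time gave 0 to 17 on day 2, 0 to 6 on day 4, 0 to 12 on day 7, 11 to 40 for the mean, 0 to 1 for day 4 minus day 2, 0 to 1 for day 7 minus day 2, 0 to 24 for day 7 minus day 4 and 0 to 6 in the F test.

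Signs turned only for values that had not been called. Without samples 2 and 3 of day 4 together, the day 4 ratio was -0.13 for Cd36, -0.0041 for Fabp5, -0.18 for Agpat2, -0.36 for Dgat2 and -0.65 for Pnpla3. Gpam on day 7 minus day 2 was -0.0556 with quantile normalization and -0.0215 with array weights. Without centring, Agpat2 was -0.0261 and Dgat2 -0.0316 on day 4, and with quantile normalization the mean of days of Lpin1 was -0.0064. With 1 sample left out, values ranged across 0 for Cd36 on day 7 minus day 4 (-0.15 to 0.73), Lpl on day 4 (-0.10 to 0.25) and day 7 (-0.41 to 0.21), Gpam on day 7 minus day 2 (-0.27 to 0.61), Lpin1 for the mean (-0.0900 to 0.14) and Dgat1 on day 4 minus day 2 (-0.0861 to 0.23). The same held for Fabp5 on day 2 (-0.0628 to 0.85), day 4 (-0.10 to 0.52), day 7 (-0.65 to 0.15) and for the mean (-0.04 to 0.30). It held for Agpat2 on day 2 (-0.50 to 0.0414) and day 4 (-0.12 to 0.11), for Dgat2 on day 2 (-0.33 to 0.0392) and day 4 (-0.18 to 0.19), and for Pnpla3 on day 2 (-0.37 to 0.0548), day 4 (-0.45 to 0.67) and for the mean (-0.28 to 0.0927). The cause was not tested.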

Other observations

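A second probe set is annotated to Cd36 together with the symbol Cd36l1 and so was not used for Cd36. It was at 1.15, 0.81 and 0.81 on day 2 (mean 0.92 ± 0.19, SD, n = 3), at 0.05, 0.76 and 0.52 on day 4 and at 1.24, -0.67 and 0.64 on day 7. Its mean was highest on day 2 and its highest sample of day 7 was sample 1, as for the probe set of Cd36 alone, whose day 2 mean was 1.98. On the later days the 2 probe sets differed. The means of the shared probe set were 0.44 on day 4 and 0.40 on day 7, against 0.44 and 0.82 for that of Cd36 alone. In sample 2 of day 7 they were at -0.67 and 0.12. In limma over all probe sets the shared probe set did not pass on day 2 (adjusted p = 0.310) or for the mean of the 3 days (log2 0.59, adjusted p = 0.195).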
